A study of Homo sapiens with 12 samples.

Results

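Desmosomes are adhesive plaques that join neighbouring epithelial cells and tie the cell surface to the keratin cytoskeleton. The part of the expression data described here is 9 desmosome genes together with CDH3, which encodes P-cadherin. Members were chosen by gene name in the deposited table, and every probe that carried 1 of the 10 names was taken, which gave 19 of 47228 probes. Of these, 13 probes of 8 genes were detected on at least 2 of the 12 arrays and were tested among 24207 probes. DSG3 and PKP1 had no probe that passed this detection filter.

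The arrays, Illumina HumanHT-12 v4, were hybridised with RNA of Capan-1 and MIA PaCa-2 cells, established lines of human pancreatic ductal adenocarcinoma. Each line carried a tet-on PLKO.1 vector with 1 of 3 hairpins, a scrambled control (shCtrl) or sh1209 or sh1319, both against FAK (focal adhesion kinase, encoded by PTK2). All 6 groups, shCtrl included, were puromycin-resistant cells kept in puromycin, 1.5 ug/ml in Capan-1 cultures and 3.5 ug/ml in those of MIA PaCa-2. The labels of every group, shCtrl included, give 1 induction protocol, doxycycline at 50 ng/ml over 96 hours, and 500 ng of RNA was labelled. The Capan-1 labels spell the last hairpin shFAK1319, which was read as sh1319. Each group had 2 arrays, and the labels do not say whether these came from separate cultures, so that p-values measure only the spread between these arrays. In RNA from a whole culture, fewer cells that express a gene and less RNA of it in each cell cannot be told apart.

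Desmogleins (DSG2, DSG3) and desmocollins (DSC2) are the transmembrane cadherins that meet between cells. Inside the membrane they bind plakoglobin (JUP) and the plakophilins (PKP1, PKP2, PKP3), which recruit desmoplakin (DSP), the protein that holds the keratin filaments. PERP is a tetraspan membrane protein of desmosomes whose gene is a known target of p53 and p63. P-cadherin is a classical cadherin of adherens junctions, the actin-linked neighbours of desmosomes, and binds JUP as well as beta-catenin.

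A level is the background-corrected, quantile-normalized intensity of a probe on the log2 scale, and a difference is the difference between group means on that scale. The 12 median deposited intensities ranged from 87.7 to 97, and between 16259 and 19814 probes of an array were detected at p under 0.05. Levels near 4 to 5 are close to background, where differences are understated. The targeted gene was checked first. PTK2 probe 450253 changed against shCtrl in MIA PaCa-2 by -2.24 (sh1209) and -2.48 (sh1319), and in Capan-1 by -0.61 and -1.78, all past an adjusted p of 0.05 in limma. The second PTK2 probe, 2680750, did not pass in any of these 4 pairs, with differences of 0.31, -0.29, -0.46 and -0.46 in the same order. Of the epithelial markers, EPCAM was detected on 2 and CDH1 on 0 of the 6 MIA PaCa-2 arrays, against all 6 Capan-1 arrays for both. The epithelial keratins KRT8 and KRT18 were detected on all 6 MIA PaCa-2 arrays and KRT19 on 4, so that this line lacked a detected E-cadherin transcript but not the keratin ones.

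The cell lines differed in most of these genes. With shCtrl, 10 of the 13 member probes, of 7 genes, differed between the lines at an adjusted p under 0.05 in limma, all 10 lower in MIA PaCa-2, where 42.1% of all tested probes passed in either direction. The median difference, MIA PaCa-2 minus Capan-1, was -1.34 over the member probes and 0.04 over all tested probes. DSG2 4150672, DSC2 2710400, CDH3, PKP2, JUP 110634 and JUP 4880370 met the detection filter only through the Capan-1 arrays. Such probes could hardly differ in the other direction, so that the number of lower calls and the median partly reflect the filter. These 10 calls passed under each of 19 other limma settings. In the methods' t-test after adjustment 8 passed, where 3905 of all 24207 tested probes did so.

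**Figure D1:**
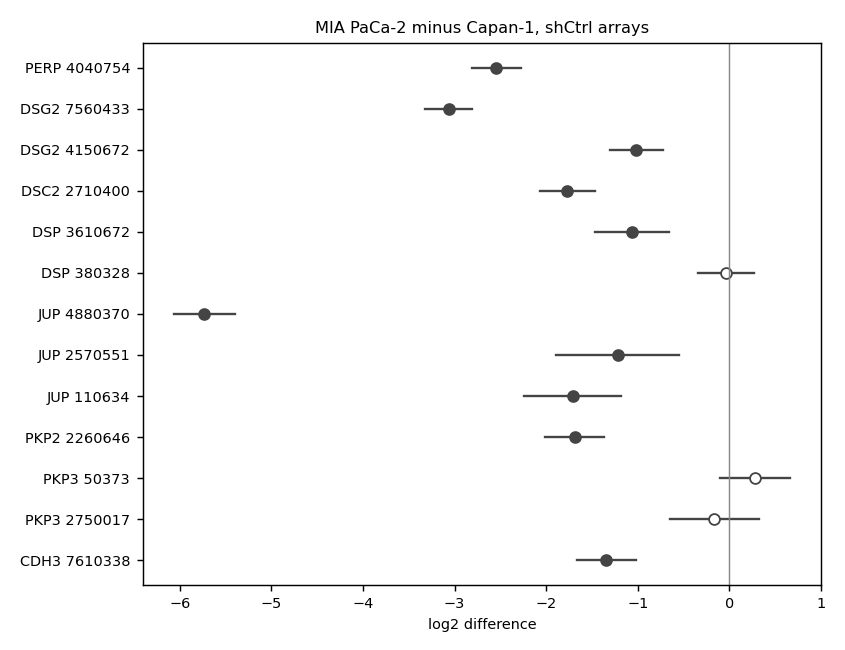
Difference in level between MIA PaCa-2 and Capan-1 with shCtrl (log2, MIA PaCa-2 minus Capan-1) for the 13 tested probes, with the 95% confidence interval from limma; filled points passed an adjusted p of 0.05. The 10 filled points lie between -5.73 and -1.02, and the open points are DSP probe 380328 and both PKP3 probes.

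JUP, the plakoglobin gene, had the widest gap. At JUP probe 4880370, Capan-1 cells with shCtrl had levels of 10.12 and 10.07, while those of MIA PaCa-2 were 4.42 and 4.30 and were not detected. The difference was -5.73 ± 0.15 (SE, n = 2 arrays a group; limma, adjusted p = 5.3e-11), and Capan-1 was at least 41.8-fold higher. The other JUP probes were lower in MIA PaCa-2 as well, by -1.71 at JUP 110634 (adjusted p = 0.00011) and by -1.22 at JUP 2570551 (adjusted p = 0.0066). The groups did not overlap at any of the 3 JUP probes.

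The cadherin genes differed in the same direction. DSG2 probe 7560433 was at 5.81 and 5.90 in MIA PaCa-2 and at 8.91 and 8.94 in Capan-1 with shCtrl, a difference of -3.07 ± 0.12 (SE; limma, adjusted p = 9.6e-10), or 8.37-fold higher in Capan-1. At DSG2 probe 4150672 the difference was -1.02 (adjusted p = 5.3e-05). Both arrays of Capan-1 lay above both arrays of MIA PaCa-2 at each DSG2 probe. DSC2 probe 2710400 stood at 4.57 and 4.45 in MIA PaCa-2, not detected, and at 6.36 and 6.20 in Capan-1, where it was at least 2.98-fold higher (-1.77, limma, adjusted p = 6.6e-07). CDH3 probe 7610338 was not detected in MIA PaCa-2, at 4.27 and 4.28, and had levels of 5.59 and 5.64 in Capan-1, at least 1.88-fold higher (-1.34, limma, adjusted p = 1.4e-05). P-cadherin and the desmocollin were thus measured above background with shCtrl in Capan-1 and not in MIA PaCa-2.

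Among the plaque genes, PKP2, a plakophilin of simple epithelia and heart muscle, was detected on 0 of 6 MIA PaCa-2 arrays and on all 6 Capan-1 arrays. PKP2 probe 2260646 was at least 2.41-fold higher in Capan-1 with shCtrl (-1.69, limma, adjusted p = 1.8e-06). DSP probe 3610672, by contrast, was detected on all 12 arrays. Its levels with shCtrl were 4.89 and 5.07 for MIA PaCa-2 against 5.91 and 6.17 for Capan-1, a difference of -1.06 ± 0.18 (SE; limma, adjusted p = 0.00055). PERP was also detected on all 12 arrays, at 7.82 and 7.84 against 10.27 and 10.47, which is 5.83-fold higher in Capan-1 (-2.54 ± 0.12, SE; limma, adjusted p = 9.6e-09). DSP and PERP therefore had signal in both lines, and their line difference is a measured fold rather than a bound.

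The remaining probes were dim in both lines. PKP3, a plakophilin found in most epithelia, did not pass between the lines at probe 2750017 (-0.17, adjusted p = 0.59) or at probe 50373 (0.28, adjusted p = 0.23). DSP probe 380328 was detected on 2 of 12 arrays and differed by -0.04 (95% interval -0.34 to 0.27; adjusted p = 0.86), so that it did not follow DSP probe 3610672. DSG3, the desmoglein of stratified epithelia, was detected on 0 of 12 arrays, with levels of 4.21 to 4.52. PKP1 was detected on 1 array, a Capan-1 shCtrl array at probe 5220181. The third probes of DSP and PKP3 were detected on 0 arrays, and DSC2 probe 5310377 was detected on 1, a Capan-1 sh1319 array.

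With FAK knock down, the members that changed rose. Of the 13 member probes, 1 passed for sh1209 against shCtrl in MIA PaCa-2, against 18% of all tested probes. For sh1319 in MIA PaCa-2, 3 member probes of 2 genes passed, against 24.3%. In Capan-1, 2 passed for sh1209, against 16.8%, and 1 for sh1319, against 13.7%. All of these were higher with the FAK hairpin. The share of member probes that passed, 7.69%, 23.1%, 15.4% and 7.69% in this order, lay below the share of all tested probes in each of the 4 pairs. That order depended on the processing, since the member share was the larger one in 1, 7, 8 and 3 of 22 alternatives, respectively. With median scaling it was 23.1% for both hairpins in Capan-1, against 10.2% of all tested probes for sh1209 and 9.38% for sh1319. The median difference of the member probes was 0.06, 0.23, 0.09 and 0.17, while that of all tested probes lay between -0.01 and 0.01. In MIA PaCa-2 these medians were the values of probes near background. PKP2 2260646 (0.06, sh1209) was not detected in either group, and JUP 4880370 (0.23, sh1319) was not detected with shCtrl. Probes not detected with shCtrl could hardly fall, so that the MIA PaCa-2 medians cannot show whether the members rose as a set.

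PERP was the member that changed with FAK knock down in MIA PaCa-2 with both hairpins. Its levels in MIA PaCa-2 were 7.82 and 7.84 with shCtrl, 8.71 and 8.61 with sh1209, and 9.31 and 9.32 with sh1319. The 3 groups did not overlap, and their arrays lay in the order shCtrl, sh1209, sh1319. PERP rose by 0.83 ± 0.12 (SE) with sh1209 (limma, adjusted p = 0.00068) and by 1.48 ± 0.12 (SE) with sh1319 (limma, adjusted p = 5.3e-06), which is 1.78-fold and 2.80-fold. The hairpins themselves differed, by -0.65 as sh1209 minus sh1319 (limma, adjusted p = 0.0024).

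In Capan-1, PERP was at 10.27 and 10.47 with shCtrl, 10.42 and 10.49 with sh1209, and 10.33 and 10.57 with sh1319. Those 3 groups overlapped. The difference was 0.08 with sh1209 (95% interval -0.19 to 0.35; adjusted p = 0.77) and 0.07 with sh1319 (95% interval -0.20 to 0.34; adjusted p = 0.79). The response in MIA PaCa-2 exceeded that in Capan-1 by 1.08 ± 0.15 (SE; limma, adjusted p = 0.00064), a difference tested as an interaction. It was the 1 member probe of 13 that passed this test, against 14.4% of all tested probes. PTK2 probe 450253 of the targeted gene fell further in MIA PaCa-2 (interaction -1.17, limma, adjusted p = 0.00021). The interaction at PTK2 probe 2680750 had the opposite sign and did not pass (0.47, limma, adjusted p = 0.15). The part of PTK2 in the PERP difference was not tested. The PERP level with sh1319 in MIA PaCa-2 still lay below every Capan-1 array. Each of these PERP calls passed under all other limma settings, with 0.67 to 0.91 for sh1209 in MIA PaCa-2, 1.24 to 1.74 for sh1319 and 0.88 to 1.19 for the interaction.

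**Figure D2:**
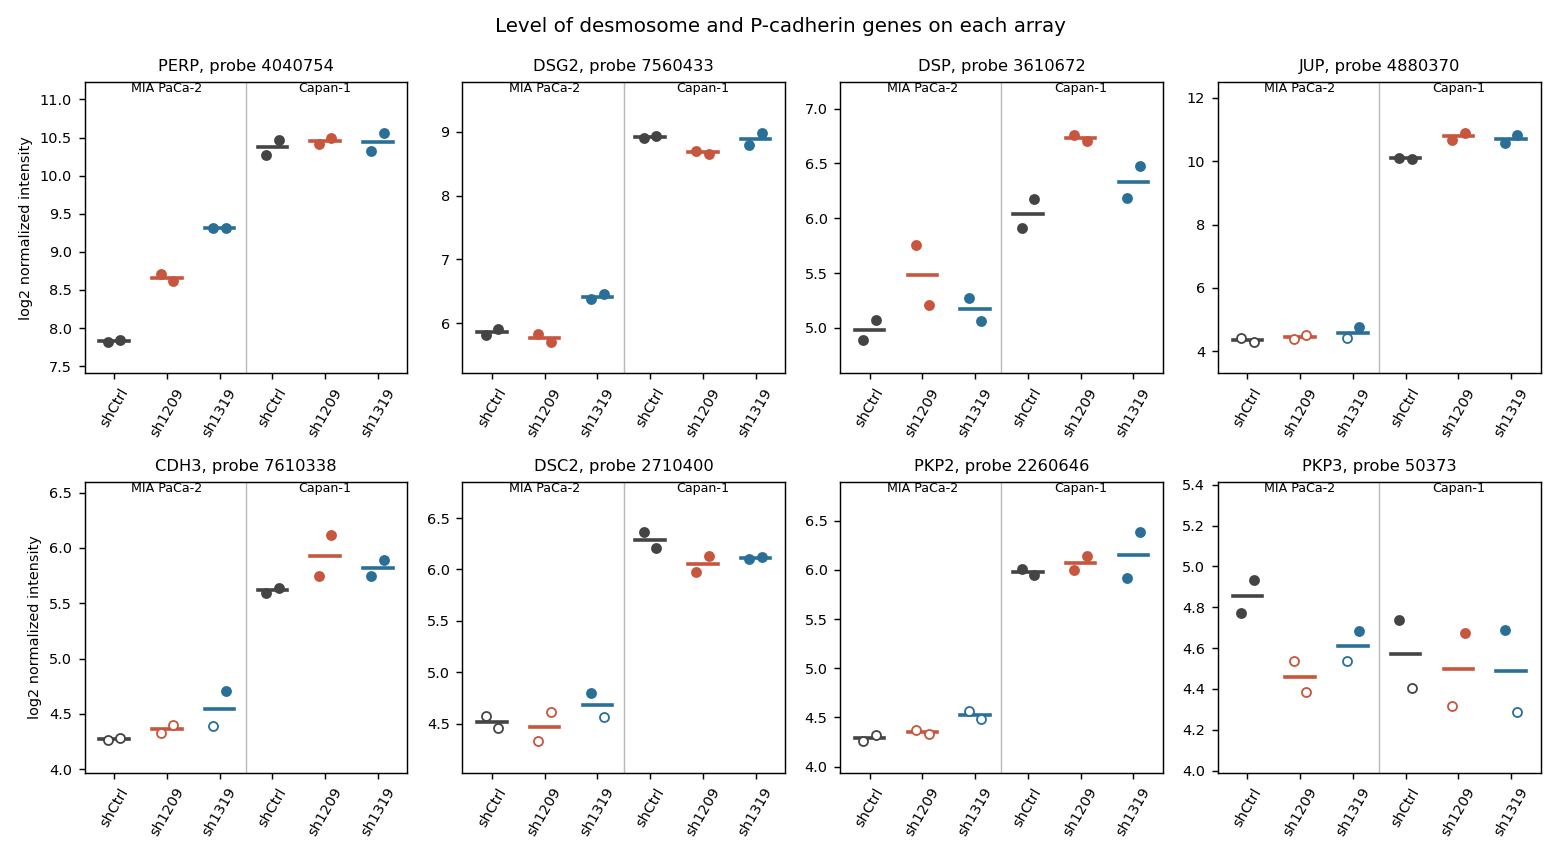
Level of the brightest tested probe of each of 8 genes on every array (log2 normalized intensity, a separate axis for each panel); points are arrays, filled where detected at p under 0.05 and open where not, and lines are group means of 2 arrays. PERP steps up in MIA PaCa-2 from 7.82 with shCtrl to 9.32 with sh1319, while its Capan-1 arrays lie between 10.27 and 10.57.

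The promoter windows of the members that changed against shCtrl are printed, since these genes are the ones whose transcript moved. Each window runs from 250 bases before to 50 bases after a RefSeq start in GRCh38.p14, 5′ to 3′ on the strand of the gene. RefSeq windows were found for 7 of the 10 members. The windows were searched on both strands for TGANTCA, the site of AP-1 factors, and for CACCTG, the E-box form that SNAI and ZEB factors are known to bind. Of 35116 promoters of this length, 7.7% hold the former and 20.6% the latter. The PERP window, chr6:138107370-138107669 on the minus strand, was the 1 of 7 members with TGANTCA, shown in capitals, and has no CACCTG. A match is a run of letters and not a measured site.
PERP: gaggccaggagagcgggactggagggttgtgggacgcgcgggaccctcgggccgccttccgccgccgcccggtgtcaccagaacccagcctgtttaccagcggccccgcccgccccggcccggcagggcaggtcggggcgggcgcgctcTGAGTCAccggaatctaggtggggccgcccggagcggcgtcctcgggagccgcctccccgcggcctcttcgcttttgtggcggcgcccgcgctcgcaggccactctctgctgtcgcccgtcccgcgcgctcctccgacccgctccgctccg

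DSG2, the desmoglein found in most epithelia, changed in MIA PaCa-2 with sh1319. DSG2 probe 7560433 was at 5.81 and 5.90 with shCtrl, 5.83 and 5.71 with sh1209, and 6.37 and 6.46 with sh1319. Both sh1319 arrays lay above the other 4 arrays, while shCtrl and sh1209 overlapped. DSG2 rose by 0.56 ± 0.12 (SE) with sh1319 (limma, adjusted p = 0.004), or 1.47-fold, and the difference with sh1209 was -0.09 (95% interval -0.34 to 0.17; adjusted p = 0.68). The hairpins differed by -0.65, sh1209 minus sh1319 (limma, adjusted p = 0.0016).

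The second DSG2 probe, 4150672, was at 4.28 and 4.25 with shCtrl, 4.43 and 4.34 with sh1209 and 4.66 and 4.95 with sh1319 in MIA PaCa-2, where it was detected on 1 sh1319 array only. It rose by 0.54 with sh1319 (limma, adjusted p = 0.011), at least 1.07-fold. This call did not pass with median scaling (0.50), without shCtrl replicate 2 (0.53) or without sh1319 replicate 2 (0.39) of MIA PaCa-2, and the hairpin difference at this probe, -0.42 (limma, adjusted p = 0.038), passed in 9 of 20 other settings. Where 1 array of a group was left out, the remaining array was assumed to vary like those of the other groups. In Capan-1 neither DSG2 probe passed, with differences of -0.24 and -0.31 for sh1209 and -0.03 and -0.07 for sh1319, the latter pair 0.16 and 0.13 with median scaling. Without background correction the sh1209 difference of Capan-1 passed at DSG2 7560433, lower (-0.21, limma, adjusted p = 0.042). The interaction missed the threshold at DSG2 4150672 (0.52, adjusted p = 0.052) and at DSG2 7560433 (0.37, adjusted p = 0.11). At DSG2 4150672 it passed with the stricter filter (0.52, adjusted p = 0.031), without MIA PaCa-2 sh1319 replicate 1 (0.61, adjusted p = 0.031) and without Capan-1 sh1209 replicate 1 (0.58, adjusted p = 0.042). DSG2 lies next to DSG3 on chromosome 18, and DSC2 lies between DSC3 and DSC1 on the same chromosome.

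The DSG2 window, chr18:31497927-31498226 on the plus strand, holds CACCTG on both strands and no TGANTCA. The DSP window, chr6:7541421-7541720 on the plus strand, and 1 of the 2 JUP windows, chr17:41785927-41786226 on the minus strand, each hold it at 2 places, while the other JUP window holds neither motif. With DSC2, where 1 of 2 windows holds it, 4 of 7 members had a CACCTG in at least 1 window. The share of 20.6% counts windows and not genes, so that the 2 figures are not on the same scale. Capitals mark the CACCTG or its reverse complement.
DSG2: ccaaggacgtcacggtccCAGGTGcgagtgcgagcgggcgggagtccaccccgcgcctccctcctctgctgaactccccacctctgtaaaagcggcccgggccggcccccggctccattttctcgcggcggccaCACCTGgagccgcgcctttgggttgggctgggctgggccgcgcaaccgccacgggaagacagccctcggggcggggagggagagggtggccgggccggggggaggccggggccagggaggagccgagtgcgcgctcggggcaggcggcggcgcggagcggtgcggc
DSP: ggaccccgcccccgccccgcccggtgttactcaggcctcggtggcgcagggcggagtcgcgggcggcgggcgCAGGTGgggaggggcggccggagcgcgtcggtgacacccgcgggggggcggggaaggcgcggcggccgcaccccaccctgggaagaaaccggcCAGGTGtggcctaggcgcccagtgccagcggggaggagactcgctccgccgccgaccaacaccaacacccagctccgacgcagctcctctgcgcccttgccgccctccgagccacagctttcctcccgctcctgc
JUP: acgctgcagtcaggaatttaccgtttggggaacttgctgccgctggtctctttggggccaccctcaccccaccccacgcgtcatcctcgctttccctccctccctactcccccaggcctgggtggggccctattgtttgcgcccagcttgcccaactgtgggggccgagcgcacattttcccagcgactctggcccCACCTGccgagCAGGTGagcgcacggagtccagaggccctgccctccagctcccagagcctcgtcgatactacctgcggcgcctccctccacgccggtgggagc

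JUP was the member that changed in Capan-1 with both hairpins. JUP probe 4880370 was at 10.12 and 10.07 with shCtrl, 10.66 and 10.91 with sh1209, and 10.56 and 10.84 with sh1319. All 4 arrays with a FAK hairpin lay above both shCtrl arrays. JUP rose by 0.69 ± 0.15 (SE) with sh1209 (limma, adjusted p = 0.0094) and by 0.61 ± 0.15 (SE) with sh1319 (limma, adjusted p = 0.021), which is 1.62-fold and 1.52-fold. The difference between the hairpins was 0.08. With sh1209 against sh1319 in Capan-1 no member probe of 13 passed, while 11.3% of all tested probes passed in limma. At an unadjusted p under 0.05 no member probe passed in limma or in the methods' t-test. Of all 24207 tested probes, 5621 and 3988 did so, respectively.

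The other JUP probes were less regular. JUP 2570551 was at 6.08 and 6.05 with shCtrl, 6.41 and 7.60 with sh1209 and 6.62 and 7.17 with sh1319 in Capan-1, and JUP 110634 was at 6.04 and 5.99, 5.98 and 6.97, and 6.41 and 6.72, respectively. Replicate 2 was the higher array of both FAK hairpin groups at all 3 JUP probes, and sh1209 replicate 1 overlapped with shCtrl at JUP 110634. The differences, 0.94 and 0.83 at JUP 2570551 (adjusted p = 0.058 and 0.1) and 0.46 and 0.55 at JUP 110634 (adjusted p = 0.26 and 0.18), did not pass in limma. JUP 2570551 passed for both hairpins without background correction (0.55 and 0.46), with median scaling (1.14 and 1.06) and without Capan-1 sh1209 replicate 1 (1.54 and 0.83). The call at JUP 4880370 did not pass for sh1209 without shCtrl replicate 2 (0.67) or sh1209 replicate 2 (0.58), nor for sh1319 without shCtrl replicate 1 (0.63), shCtrl replicate 2 (0.58) or sh1319 replicate 2 (0.47).

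**Figure D3:**
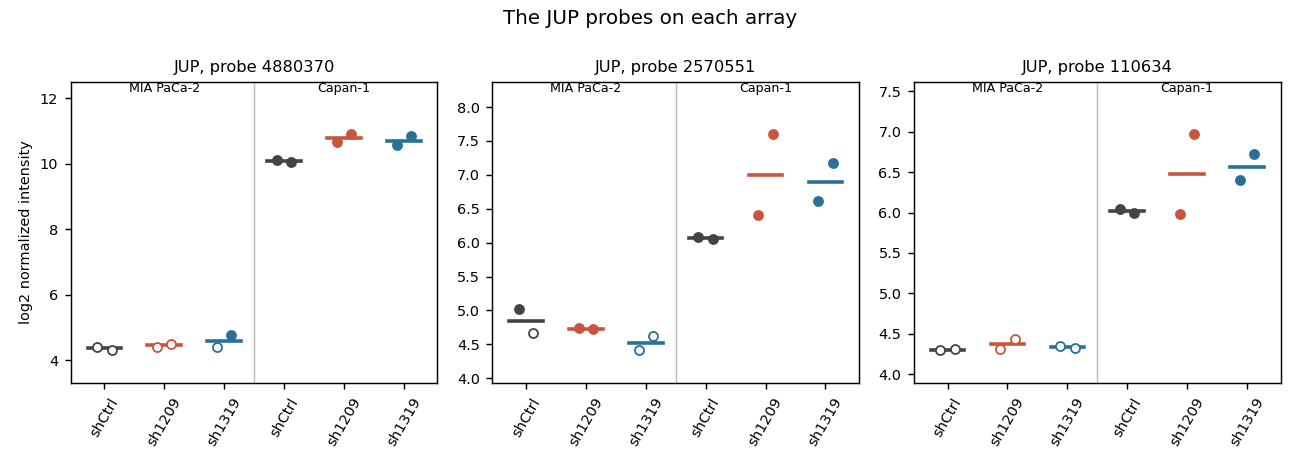
Level of the 3 JUP probes on every array (log2 normalized intensity); points are arrays, filled where detected at p under 0.05 and open where not, and lines are group means of 2 arrays. In Capan-1 the arrays with a FAK hairpin reach 10.91, 7.60 and 6.97 at the 3 probes against at most 10.12, 6.08 and 6.04 with shCtrl.

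In MIA PaCa-2 the levels of JUP 4880370 were 4.42 and 4.30 with shCtrl, 4.40 and 4.51 with sh1209, and 4.40 and 4.77 with sh1319, detected on 1 of 6 arrays. No JUP probe passed there. The interaction was -0.49 at JUP 4880370 (adjusted p = 0.11), -1.11 at JUP 2570551 (adjusted p = 0.073) and -0.45 at JUP 110634 (adjusted p = 0.36). At JUP 4880370 it passed without background correction (-0.55) and with an offset of 50 (-0.57). At JUP 2570551 it passed without background correction (-0.58), with median scaling (-1.27) and without Capan-1 sh1209 replicate 1 (-1.41). Leaving out that array also brought JUP 110634 past the threshold (-0.70, adjusted p = 0.021).

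DSP, which encodes the keratin-binding protein of the plaque, changed in Capan-1 with sh1209. DSP probe 3610672 in Capan-1 was at 5.91 and 6.17 with shCtrl, 6.76 and 6.70 with sh1209, and 6.19 and 6.48 with sh1319. DSP rose by 0.69 ± 0.18 (SE) with sh1209 (limma, adjusted p = 0.025), or 1.61-fold, and the difference with sh1319 was 0.29 (95% interval -0.11 to 0.70; adjusted p = 0.37). The hairpins did not differ detectably in Capan-1 (0.40, adjusted p = 0.23). The call for sh1209 did not pass without shCtrl replicate 1 (0.56), sh1209 replicate 1 (0.66) or sh1209 replicate 2 (0.72) of Capan-1.

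In MIA PaCa-2, DSP probe 3610672 was at 4.89 and 5.07 with shCtrl, 5.76 and 5.20 with sh1209, and 5.28 and 5.06 with sh1319. The sh1209 arrays differed from each other more than either group mean differed from shCtrl. The differences were 0.50 with sh1209 (adjusted p = 0.087) and 0.19 with sh1319 (adjusted p = 0.54). The former passed without sh1209 replicate 2 of MIA PaCa-2 (0.78). DSP probe 380328 passed in no comparison.

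**Figure D4:**
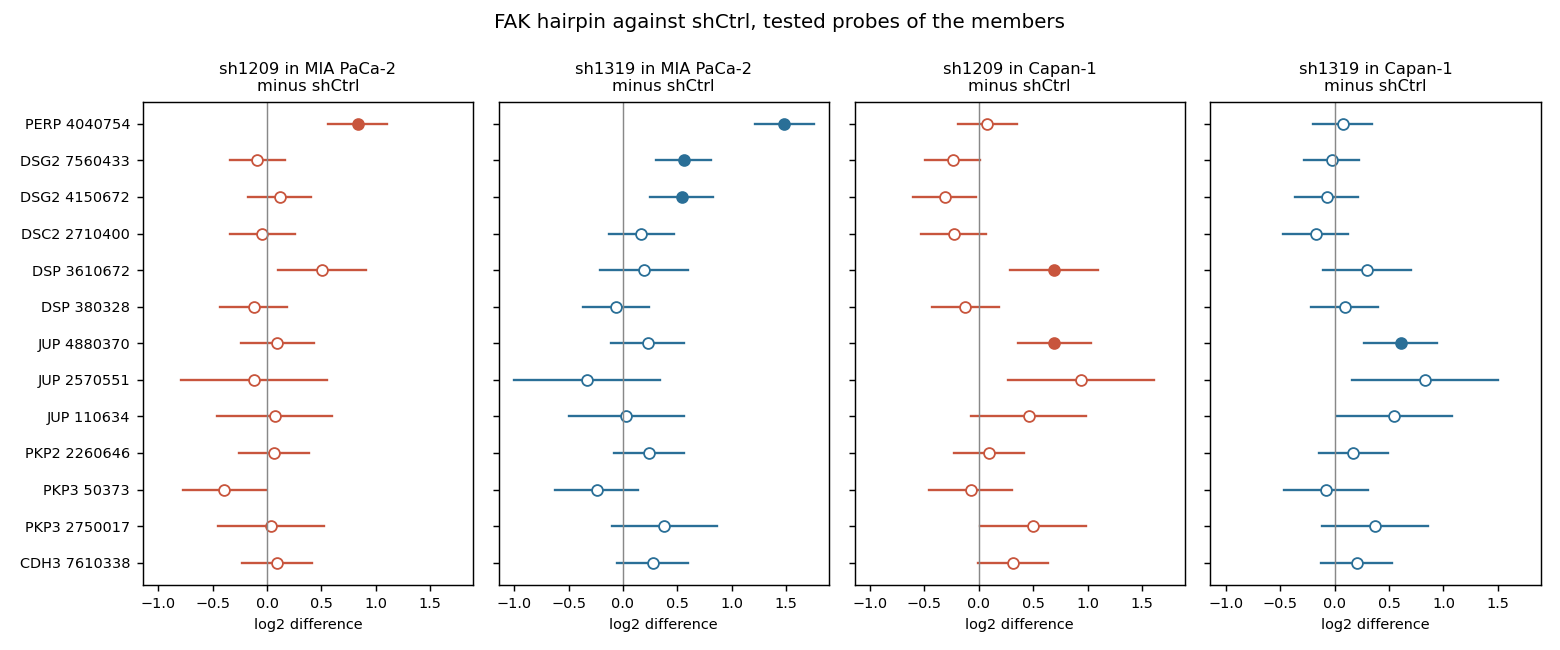
Difference in level between each FAK hairpin and shCtrl of the same line (log2) for the 13 tested probes, with the 95% confidence interval from limma; filled points passed an adjusted p of 0.05. The filled points are PERP in both MIA PaCa-2 panels, both DSG2 probes with sh1319 in MIA PaCa-2, DSP 3610672 with sh1209 in Capan-1 and JUP 4880370 in both Capan-1 panels.

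The other tested members did not pass against shCtrl with either hairpin in either line. CDH3 probe 7610338 in Capan-1 was at 5.59 and 5.64 with shCtrl, 5.74 and 6.12 with sh1209, and 5.75 and 5.89 with sh1319. All 4 arrays with a FAK hairpin lay above both shCtrl arrays, by 0.31 (adjusted p = 0.2) and 0.20 (adjusted p = 0.46). DSC2 probe 2710400 went from 6.36 and 6.20 with shCtrl to 5.97 and 6.13 with sh1209 and 6.10 and 6.12 with sh1319, with no overlap and differences of -0.23 (adjusted p = 0.32) and -0.18 (adjusted p = 0.49). Neither gene passed, with a standard error of 0.15 for CDH3 and 0.14 for DSC2.

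PKP2 probe 2260646 in Capan-1 was at 6.01 and 5.95 with shCtrl, 5.99 and 6.15 with sh1209, and 5.92 and 6.38 with sh1319, and these groups overlapped. Its differences over the 4 pairs of hairpin and line lay between 0.06 and 0.24. PKP3 probe 2750017 was detected on both sh1209 arrays of Capan-1, at 4.74 and 5.10, and on neither shCtrl array, a difference of 0.50 (adjusted p = 0.17). In both lines this probe was detected only on arrays with a FAK hairpin, so that its positive differences partly reflect the detection filter. PKP3 probe 50373 was detected on both shCtrl arrays of MIA PaCa-2, at 4.77 and 4.93, and on neither sh1209 array, a difference of -0.39 (adjusted p = 0.16). The PKP3 probes differed in sign from each other in all 4 pairs, and neither passed.

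Averaged over both hairpins and both lines, 3 member probes passed, all higher, against 25.2% of all tested probes. These were PERP (0.62, limma, adjusted p = 0.00013), DSP 3610672 (0.42, adjusted p = 0.018) and JUP 4880370 (0.41, adjusted p = 0.0079). The PERP average holds values of 0.83 and 1.48 in MIA PaCa-2 and of 0.08 and 0.07 in Capan-1. The DSP call did not pass without shCtrl replicate 1 of MIA PaCa-2 (0.37) or of Capan-1 (0.35). For sh1209 against sh1319 in MIA PaCa-2, 3 member probes passed, against 22.6%, and all 3, PERP and both DSG2 probes, were lower with sh1209. The comparisons of a line share its shCtrl arrays, and the average is built from the same 4 differences.

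Pairs of members differed in how closely they varied together over the arrays, from -0.62 to 0.86 as Pearson's r. With the mean of each line subtracted and the brightest tested probe of each gene taken, Pearson's r over the 12 arrays was 0.86 for JUP and CDH3 and 0.69 for DSG2 and PERP. It was 0.33 for JUP and PERP, 0.49 for DSP and JUP and -0.62 for DSP and DSC2. The arrays of a hairpin group are not independent conditions, so that these values describe the arrays and carry no test.

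By the same measure, the tested probes most like PERP were those of SLC39A8, a zinc transporter (r = 0.99), CCND2, a D-type cyclin (0.99), and ABCA8, a lipid transporter (0.98). Those most like DSG2 were ABCC5, an efflux transporter (0.98), TANK, a TRAF-binding protein (0.98), and MLKL, the effector of necroptosis (0.97). For JUP they were CD59, a complement inhibitor (0.97), USP5, a deubiquitinase (0.94), and ADAM8, a membrane metalloprotease (0.94). For DSP they were B3GNT9, a glycosyltransferase (0.95), VCX2 (0.92) and the unnamed transcript HS.567677 (0.91). None of these 12 genes is a member.

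Of the other desmosome and plakin genes, 5 probes of DSC3, PKP4, EVPL and PPL were tested. None passed in any of the 4 pairs of hairpin and line, where 13.7% to 24.3% of all tested probes passed. EVPL, the envoplakin gene, fell by 0.34 in the average over hairpins and lines (limma, adjusted p = 0.0073). Between the shCtrl groups, EVPL was lower in MIA PaCa-2 (-1.20). PPL and DSC3 probe 1440465 were not detected in that MIA PaCa-2 group, and Capan-1 was at least 1.81-fold higher for PPL and at least 1.19-fold for this DSC3 probe. DSC3 probe 3990184 had the opposite sign and did not pass (0.30, adjusted p = 0.13), and PKP4 did not pass. DSG1, DSG4 and DSC1 had no tested probe.

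Among the keratins, the filament proteins that desmosomes anchor, KRT19 fell with both hairpins in MIA PaCa-2. KRT19 was at 6.05 and 6.02 with shCtrl, 4.81 and 4.38 with sh1209 and 4.85 and 4.26 with sh1319, and fell by 1.44 and 1.47. KRT8 was at 10.63 and 10.71 with shCtrl, 10.30 and 10.20 with sh1209 and 9.67 and 9.49 with sh1319, and with sh1319 it fell by 1.09 (limma, adjusted p = 0.0003). KRT18 probe 110431 fell by 0.80 with sh1319, whereas KRT7, not detected with shCtrl there, rose by at least 1.12-fold. KRT18 probe 6280128 did not follow, at 5.68 to 5.81 with shCtrl and 5.68 to 5.87 with sh1319, and did not pass. Of 6 keratin probes tested, 1 was lower with sh1209 (16.7%, against 18% of all tested probes). With sh1319, 3 were lower and 1 higher (66.7%, against 24.3%). In Capan-1, KRT17 rose by 1.19 with sh1209, and KRT7 fell by 0.40 with sh1209 and 0.54 with sh1319. KRT18 probe 110431 did not pass between the lines with shCtrl, at 7.24 to 7.35 in MIA PaCa-2 and 7.29 to 7.72 in Capan-1. Between the lines with shCtrl, KRT19 (-6.58) was lower and KRT18 probe 6280128 (0.73) was higher in MIA PaCa-2. KRT7 and KRT17 were not detected in that group, and Capan-1 was at least 32.8-fold higher for KRT7 and at least 3.06-fold for KRT17.

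The adherens junction genes beside CDH3 had 20 tested probes. CDH1, the E-cadherin gene and the neighbour of CDH3 on chromosome 16, was detected on 0 of 6 MIA PaCa-2 arrays and in Capan-1 was at 9.66 and 9.45 with shCtrl and 10.13 and 10.23 with sh1209, a rise of 0.63 (limma, adjusted p = 0.0095). With sh1319 the CDH1 levels, 9.29 and 9.60, overlapped with shCtrl, and the difference of -0.11 did not pass (adjusted p = 0.72). CDH2, the N-cadherin gene, was detected in Capan-1 only and rose by 0.75 with sh1209 and 1.29 with sh1319. PVRL2, a nectin gene, rose in Capan-1 with both hairpins, by 0.90 at both probes that passed with sh1209 and by 0.73 and 0.68 with sh1319, and in MIA PaCa-2 by 0.57 at 1 probe with sh1319. In all, 4 probes were higher and 1 lower with sh1209 in Capan-1 (25%, against 16.8% of all tested probes). With sh1319, 5 were higher and 1 lower (30%, against 13.7%). In MIA PaCa-2, both PVRL3 probes were lower with sh1209, where they were not detected, by at least 1.75-fold and 1.12-fold. With sh1319 3 probes were higher there, both of VCL, the vinculin gene (0.97 and 0.86), and that of PVRL2. The probes that passed in MIA PaCa-2 were 10% with sh1209 and 15% with sh1319, against 18% and 24.3% of all tested probes.

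**Figure D5:**
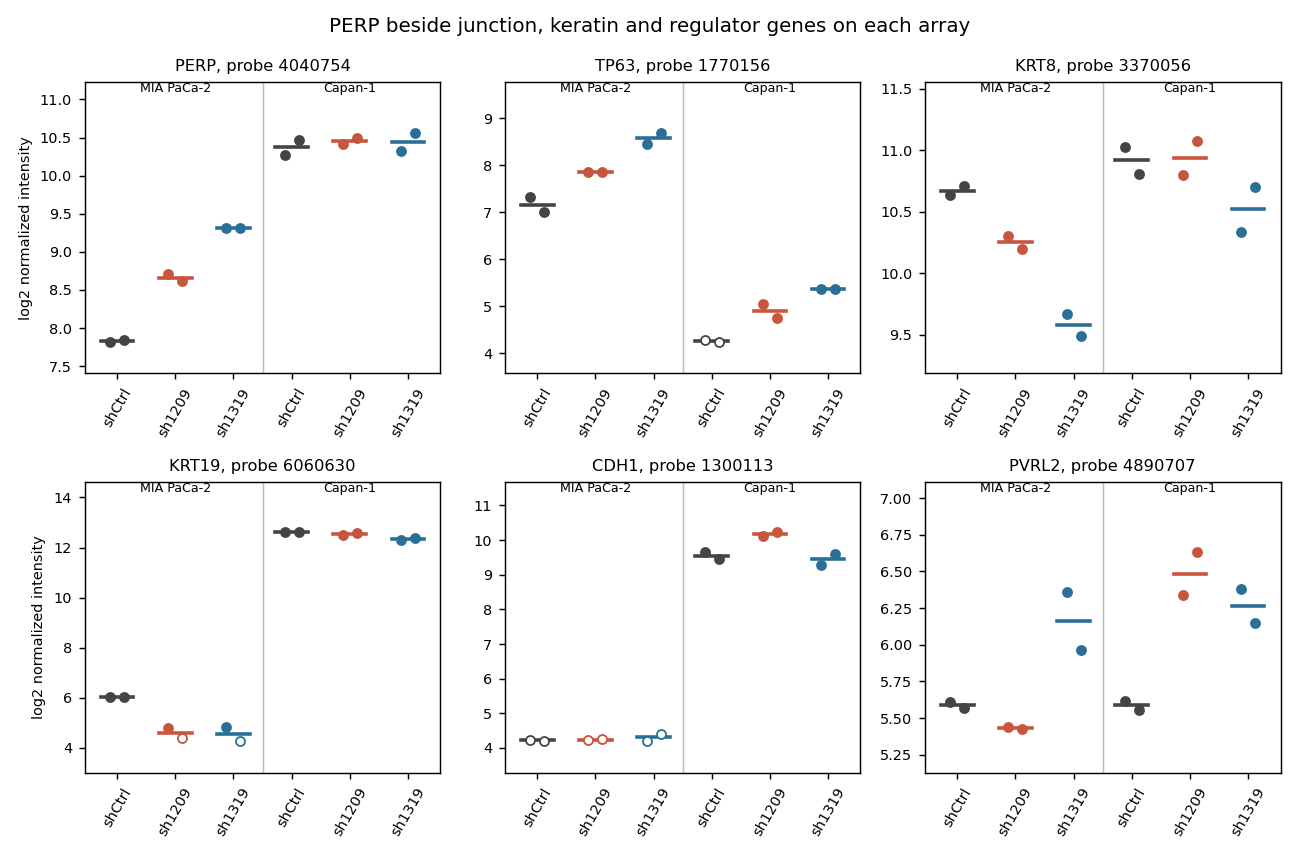
Level of PERP beside TP63, KRT8, KRT19, CDH1 and PVRL2 on every array (log2 normalized intensity, a separate axis for each panel); points are arrays, filled where detected at p under 0.05 and open where not, and lines are group means of 2 arrays. In MIA PaCa-2, PERP and TP63 probe 1770156 are higher with both FAK hairpins than with shCtrl. The arrays with a FAK hairpin lie below both shCtrl arrays for KRT8 and KRT19 there.

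Among the regulators of epithelial junction genes, 10 probes of 6 genes were tested. TP63, which encodes p63, was tested at probe 1770156, while its other probe, 5700152, was detected on 0 arrays. In MIA PaCa-2, TP63 was at 7.32 and 7.01 with shCtrl, 7.85 and 7.86 with sh1209, and 8.46 and 8.70 with sh1319. It rose by 0.69 (limma, adjusted p = 0.0062) and 1.42 (limma, adjusted p = 2.7e-05). In Capan-1, TP63 was not detected with shCtrl and rose by at least 1.23-fold with sh1209 and 1.69-fold with sh1319, where PERP did not pass. GRHL3, a grainyhead-like factor, rose in Capan-1 at probe 50168 by 0.64 with sh1209 and 2.08 with sh1319, and was detected on 0 MIA PaCa-2 arrays. No regulator was lower in any of the 4 pairs. In the average over hairpins and lines, TP63 (0.96) and GRHL3 probe 50168 (0.67) were higher, while OVOL2 (-0.33, limma, adjusted p = 0.011) and GRHL1 probe 4250131 (-0.31, limma, adjusted p = 0.043) were lower. ZEB1, ZEB2, SNAI1 and OVOL1 were detected on 0 arrays and TWIST1 on 1, SNAI2 was detected on 4 Capan-1 arrays, and ESRP1 was not analysed here.

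Markers of other cells were set beside the member values. Of 4 fibroblast markers, COL3A1 rose in MIA PaCa-2 by at least 8.26-fold with sh1209 and 6.78-fold with sh1319, while DCN, LUM and PDGFRB were detected on 0 MIA PaCa-2 arrays. LUM rose in Capan-1 with sh1319 by at least 1.20-fold and was not detected with shCtrl or sh1209. The summed fibroblast level in MIA PaCa-2 was 6.31 to 6.44 with shCtrl, 8.09 to 8.14 with sh1209 and 7.83 to 7.93 with sh1319, and in Capan-1 it lay between 6.24 and 6.51. The summed level of the 5 epithelial markers in MIA PaCa-2 was 10.86 to 10.92, 10.41 to 10.52 and 9.76 to 9.93, respectively. This sum was taken over linear signals, and in MIA PaCa-2 most of it was KRT8, at 10.63 to 10.71 with shCtrl and 9.49 to 9.67 with sh1319. It therefore says little about the other 4 markers there. In Capan-1 the sum was 13.49 to 13.54, 13.52 to 13.58 and 13.16 to 13.37. Of the mesenchymal markers, CDH2 rose in Capan-1 as given above and VIM probe 830593 rose there with sh1319 by 0.47 (limma, adjusted p = 0.036), while ZEB1 was detected on 0 arrays. Their summed level in Capan-1 was 7.21 to 7.23 with shCtrl, 7.63 to 7.68 with sh1209 and 7.99 to 8.03 with sh1319, and in MIA PaCa-2 it lay between 13.09 and 13.36. The part of these markers in the changes of PERP, DSG2, JUP and DSP was not tested. Of the leukocyte markers, PTPRC and CD3E were each detected on 1 MIA PaCa-2 array and on 0 Capan-1 arrays. CD14 was detected on 5 MIA PaCa-2 arrays and 1 Capan-1 array, and it passed in no comparison.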

How the data were processed

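Total RNA was hybridised to 12 Illumina HumanHT-12 v4 arrays on 1 chip, 2 for each of 6 groups of cell line and hairpin, grouped by the sample labels. The values that the authors deposited are a linear intensity per probe and a detection p-value, not normalized, and the submitters' processing notes name GenomeStudio 2011.1. The table has 47320 rows, with intensities from 66.6 upward. limma's nec function removed the background (normexp from the detection p-values, offset 16). Then 92 spike-in rows were left out, and quantile normalization was applied to log2 values. A probe was tested when its detection p-value was under 0.05 on at least 2 arrays. limma 3.58.1 in R 4.3.3 fitted 6 group means, which left 6 residual degrees of freedom, with Benjamini-Hochberg adjustment over all tested probes of each comparison. The number of arrays limits the precision.

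The 9 comparisons were each hairpin against shCtrl in each line, their mean, the hairpins against each other in each line, the lines with shCtrl, and the difference of the mean responses between the lines. Where a probe was detected on no array of a group, the lower bound of a fold was taken against the lowest normalized level among detected probes of each array. The members and gene lists were chosen with earlier results of these data known. Named were all member probes, PTK2, up to 4 genes of each list past the threshold in a comparison, and the 3 probes most like each changed member. Regions of the probes were not given in the sources used here, so that the transcript a probe reads is not known. Alternatives were no background correction, an offset of 50, median scaling, no filter, a stricter filter (detection p-value under 0.01 on at least 4 arrays), the replicate number as a block, array weights, a fit of 1 cell line, each array left out in turn, and the methods' t-test. The fit was tested on simulated data, in which 200 of 24207 probes changed with sh1319 in MIA PaCa-2. Of log2 changes of 0.5, 1 and 1.5 it recovered 0%, 76% and 96%, and 0%, 3.80% and 6.34% of the calls were false. In the data 5887 probes passed in that comparison, so that these rates do not carry over. The values of 1 marker gene are not reported here.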

Additional observations from a re-analysis of the deposited data

Results flagged for a closer look

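PERP probe 4040754 had a response to FAK knock down that differed between the cell lines. The mean response of both hairpins in MIA PaCa-2 exceeded that in Capan-1 by 1.08 on the log2 scale, tested as an interaction (limma, adjusted p = 0.00064). All 4 MIA PaCa-2 arrays with a FAK hairpin lay above both shCtrl arrays of that line, at 8.61 to 9.32 against 7.82 and 7.84, while in Capan-1 the groups overlapped between 10.27 and 10.57. The PERP level with shCtrl also differed between the lines, as did the response of PTK2 probe 450253 (interaction -1.17, limma, adjusted p = 0.00021). At PTK2 probe 2680750 the interaction had the opposite sign and did not pass (0.47, limma, adjusted p = 0.15). The part of the PERP level and of PTK2 in the difference in response was not tested. Groups of 2 arrays were too small for a search for outlying samples.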

How the results depend on the processing

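Of 2256 values recomputed for the member probes under the limma alternatives, 2202 kept their direction and their side of the threshold or passed in neither, 24 no longer passed, 30 passed only in the alternative and 0 reversed. Among those that passed in neither, 52 changed sign. With no background correction the member probes that passed numbered 4 for sh1209 in Capan-1, of which DSG2 7560433 was lower, 2 for sh1319 in Capan-1 and 3 for the interaction. Of all 24207 tested probes, 5113, 4520 and 4667 passed, respectively. With median scaling 3 member probes passed for sh1319 in Capan-1 and 2 for the interaction, against 2270 and 1834 of all tested probes. The interaction also had 2 with an offset of 50, against 4574, and 2 with the stricter filter, against 3898 of the fewer probes tested there. With the methods' t-test after adjustment, 0 member probes passed for either hairpin in MIA PaCa-2, 0 for either in Capan-1 and 0 between the hairpins in MIA PaCa-2, where 0 to 4 of all tested probes passed. At an unadjusted p under 0.05 that test gave 1, 3, 3, 1 and 2 member probes, respectively, and 10 between the lines. Of all 24207 tested probes it gave 4613, 5646, 4935, 4393 and 5492, respectively, and 8686 between the lines. With each array left out in turn, the lone array of a group was assumed to vary like those of the other groups, so that no counts are given for these fits. Calls that did not pass without an array are given above with DSG2, JUP and DSP. Without Capan-1 sh1209 replicate 1, the sh1209 difference in Capan-1 was 1.54 at JUP 2570551 and 0.96 at JUP 110634, against 0.94 and 0.46 with all arrays. Without sh1209 replicate 2 it was 0.58 at JUP 4880370, against 0.69. The cause of these shifts was not tested.

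With the replicate block the counts stayed at 1, 3, 2 and 1 for the 4 pairs of hairpin and line, 3 for the average, 3 and 0 between the hairpins, 10 between the lines and 1 for the interaction. Of all 24207 tested probes, 4247, 5827, 3914, 3191, 5998, 5433, 2610, 10112 and 3365 passed in the same order. After normalization the deviations of same-numbered arrays correlated over 0.1 in 1 of 15 pairs of groups, while replicate 2 had the higher median deposited intensity in all 6 groups. Median scaling moved the median difference of all tested probes by over 0.1 only for sh1319 in Capan-1, to 0.11, and the JUP 4880370 difference there was 0.73 on that scale. It gave 2009 higher and 450 lower of all probes called for sh1209 in Capan-1, and 1936 and 334 for sh1319. Signal near background limits DSC2, CDH3, PKP2 and JUP in MIA PaCa-2 and PKP3, DSG3 and PKP1 in both lines.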
